A study of Mus musculus with 8 samples.

Results

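The genes described here take up apoptotic cells. They are 10 of the 53247 genes in the deposited table, chosen by symbol: the receptor tyrosine kinases Mertk, Axl and Tyro3, their ligands Gas6 and Pros1, the bridging molecule Mfge8, the co-receptors Tgm2 and Lrp1, and Elmo1 and Dock2, which drive engulfment. All 10 were found, and all 10 were among the 13850 genes tested. The samples were TAMs (tumor-associated macrophages) of s.c. LLC tumors, grown from a mouse Lewis lung carcinoma line that was implanted into C57/BL6 mice at 8 weeks of age. After 14 days, when the mice were 10 weeks old, CD45+ CD11b+ MHC II+ F4/80+ cells were sorted and their mRNA was sequenced, with 4 biological replicates from WT and 4 from miR-21 null (miR-21-/-) mice. The miR-21-/- host lacks miR-21 in every cell type, not in macrophages alone, and 1 miR-21-/- library (replicate 1) carries 2 sample numbers in its title, with no word on pooling.

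Efferocytosis, the clearance of dying cells, begins when phosphatidylserine appears on the surface of a dying cell. Macrophages bind this lipid directly or through soluble bridging molecules, and receptors such as MERTK and AXL then signal to the ELMO and DOCK proteins, which activate the GTPase RAC and move the actin skeleton around the corpse. In macrophages the same receptors are known to dampen inflammatory signaling, and in tumors they are studied as part of how TAMs handle dying cancer cells. The comparison asked how loss of miR-21 altered the TAM transcriptome, and here how it altered this uptake pathway.

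Depth lay between 20.2 and 33.4 in units of 1e+06 reads per library, so that 3 reads were worth 0.0899 to 0.148 CPM (counts per 1e+06 reads). Mir21a, the deleted gene (GRCm38 chr11:86584067-86584158, minus strand), was listed at 0.0001 CPM, the lowest value of the table, in all 8 libraries, and therefore gave no check of the genotypes. All 10 macrophage markers were detected in every library, with a summed level of 13147 to 14563 CPM in WT and 13949 to 16466 CPM in miR-21-/- TAMs. Single markers differed in direction: 6 of 10 had a lower mean in miR-21-/- TAMs, with Adgre1 (542 to 583 against 399 to 466 CPM) and Csf1r (1108 to 1474 against 866 to 1044 CPM) lower without overlap, and Fcgr1 (229.6 to 305 against 411 to 518 CPM) rose past the threshold. Of the markers of other cell types, the summed levels did not overlap between the genotypes for fibroblasts (7 genes, all detected in every library, 67.0 to 143 CPM in WT and 11.6 to 45.9 CPM in miR-21-/- TAMs), neutrophils (7 genes, 769 to 1168 and 574 to 747 CPM, with Mpo at the lowest value in 1 library), B cells (5 genes, 11.4 to 17.6 and 3.84 to 11.3 CPM) and epithelial or carcinoma cells (5 genes, 18.8 to 24.8 and 12.7 to 17.9 CPM, with Epcam at the lowest value in 3 libraries and Krt19 in 6), and each was lower in miR-21-/- TAMs. Their part in the differences described here was not tested.

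The mature miRNA that these mice lack is shown because its seed, bases 2 to 8 and in capitals, sets which transcripts it can pair with (RefSeq, GRCm38.p6, chr11:86584120-86584141, minus strand).
mmu-miR-21a-5p: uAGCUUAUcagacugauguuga

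Of the 10 genes, 2 passed the threshold that the study used, a fold change over 1.5 with a p of at most 0.005 after Benjamini-Hochberg adjustment: Tgm2 rose and Gas6 fell in miR-21-/- TAMs. Among all genes tested, 7.12% passed it, 2.89% as higher and 4.23% as lower. When only an adjusted p of 0.05 or less from limma was asked for, 6 of 10 differed (36.0% of all genes). Tgm2 and Pros1 were higher (9.49% of all genes), and Axl, Gas6, Mfge8 and Elmo1 were lower (26.5%). Mertk, Tyro3, Lrp1 and Dock2 did not pass either limit. The miR-21-/- values lay wholly outside the WT values for 4 genes, against 35.1% of all genes, with Gas6, Mfge8 and Elmo1 below (25.7%) and Tgm2 above (9.44%). By the sign of the log2 fold change alone, 3 genes were higher and 7 lower, while 33.2% of all genes were higher. The median log2 fold change of the 10 genes was -0.26, beside -0.10 over all genes tested, and the median absolute log2 fold change was 0.42, beside 0.19. Log2 fold changes are differences of log2(CPM + 1), miR-21-/- minus WT, and come out too small for genes of low level. In bulk samples, a lower share of cells that express a gene and less of its RNA per cell cannot be told apart.

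**Figure D1:**
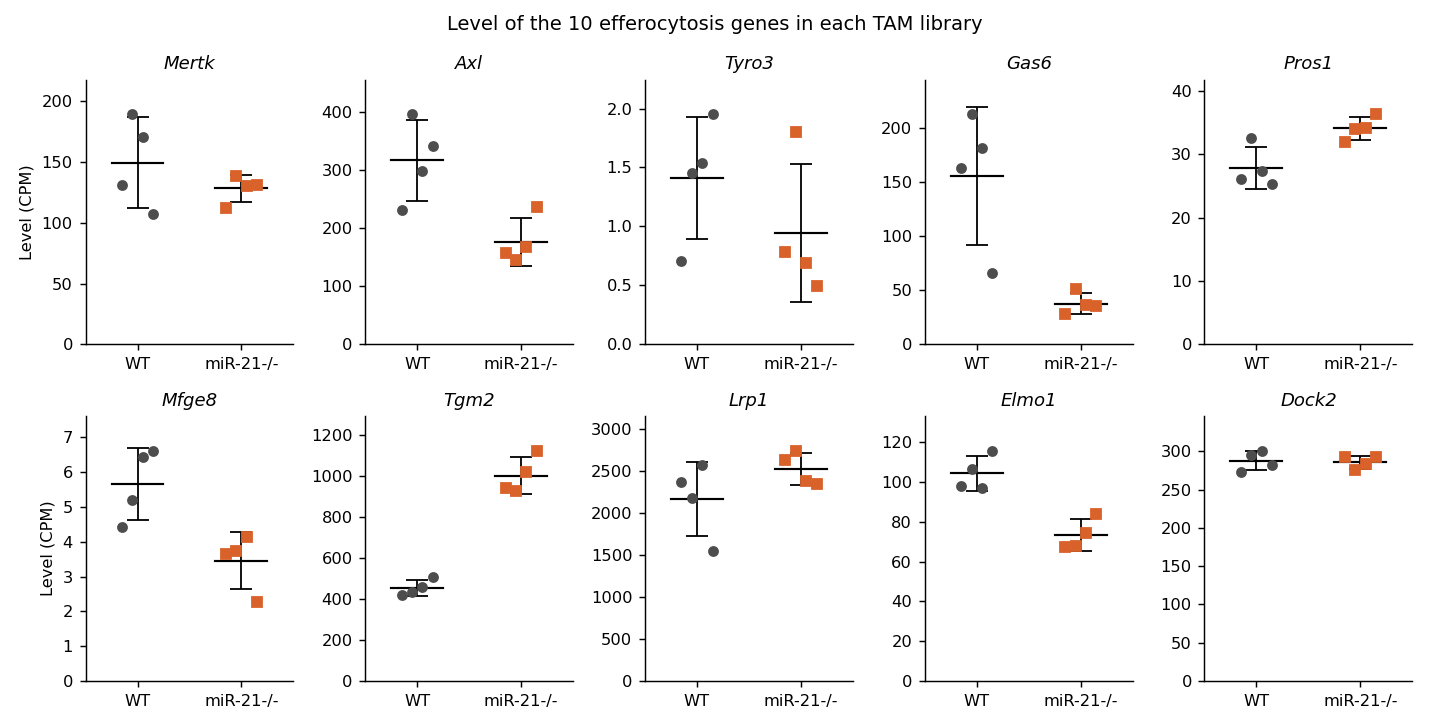
Level (CPM, vertical axis starting at 0) of each of the 10 genes in the 4 WT (gray circles, in the order of replicates 1 to 4) and 4 miR-21-/- (orange squares) TAM libraries; bars give the mean and error bars the SD. Tgm2 lies at 420.4 to 507 CPM in WT and at 927 to 1121 CPM in miR-21-/- TAMs, Gas6 falls from a mean of 155 to 37.4 CPM, and Dock2 stays between 273 and 300.4 CPM in all libraries.

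For a rough comparison between genes, levels were divided by the kilobases of annotated exon of each gene. This length counts the exons of all annotated transcripts and can exceed that of the expressed mRNA. By this measure Lrp1 was the most abundant in WT TAMs at 122 ± 24.9 CPM per kb (SD, n = 4). Tgm2 followed at 98.6 ± 8.43, and the libraries of these genes overlapped. Axl (62.9 ± 13.8 CPM per kb), Gas6 (61.0 ± 24.9), Mertk (34.5 ± 8.61) and Dock2 (25.2 ± 1.09) came next, each overlapping its neighbor in this order. Elmo1 (8.29 ± 0.686 CPM per kb) overlapped Pros1 (6.81 ± 0.809), while Mfge8 (1.21 ± 0.223) and Tyro3 (0.228 ± 0.0839) lay apart at the bottom. The order differed in miR-21-/- TAMs. Tgm2 stood first at 217 ± 19.4 CPM per kb, with its lowest library (201) above the highest Lrp1 library (154). Lrp1 followed at 142 ± 10.8, then Axl at 35.1 ± 8.18 and Mertk at 29.6 ± 2.59, which overlapped each other. Dock2 (25.02 ± 0.729 CPM per kb) came before Gas6 (14.7 ± 3.79), and Pros1 (8.35 ± 0.440) before Elmo1 (5.83 ± 0.631), with no overlap within either pair. The place of Elmo1 depends on its exon length (12.6 kb, against 4.09 kb for Pros1). Undivided, Elmo1 (73.4 CPM) stood above Pros1 (34.1 CPM) in miR-21-/- TAMs. Mfge8 (0.737 ± 0.173) and Tyro3 (0.152 ± 0.0941) again came last.

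The receptors come first. Mertk (chr2:128698956-128802894, GRCm38, plus strand) encodes the receptor through which resting macrophages clear dying cells. Its level was 131, 189, 171 and 107 CPM in WT replicates 1 to 4, and 112, 139, 131 and 131 CPM in miR-21-/- replicates 1 to 4. All 4 miR-21-/- libraries lay within the WT range, whose lowest value was that of WT replicate 4. The means were 149.5 ± 37.3 and 128 ± 11.2 CPM, a log2 fold change of -0.19 (95% interval -0.54 to 0.16, adjusted p = 0.372 from limma). It ranged from -0.06 without WT replicate 2 (adjusted p = 0.767) to -0.34 without WT replicate 4 (adjusted p = 0.0543 from limma), and was -0.11 without WT replicate 3 and -0.08 by the median of ratios or TMM factors.

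Axl (chr7:25757273-25788705, minus strand) encodes the receptor that rises in inflamed macrophages and binds GAS6 most tightly. In WT replicates 1 to 4 it was measured at 232, 396, 298 and 341 CPM, and in miR-21-/- replicates 1 to 4 at 158, 145, 167 and 237 CPM. The groups overlapped by 1 pair of libraries only, since miR-21-/- replicate 4 exceeded WT replicate 1. From 317 ± 69.3 to 176 ± 41.1 CPM, the log2 fold change was -0.84 (standard error 0.18, 95% interval -1.24 to -0.44). The adjusted p of 0.00542 from limma lay just outside the limit of 0.005. Axl passed the threshold in 3 of 18 alternatives. These were without WT replicate 1 (log2 fold change -0.98, adjusted p = 0.00245), without miR-21-/- replicate 4 (-0.99, adjusted p = 0.00196) and with the replicate number as a block (adjusted p = 0.00465). In the other 15 it did not pass. The log2 fold change was -0.72 without WT replicate 2 (adjusted p = 0.0163 from limma) and -0.73 by the median of ratios or TMM factors. The highest adjusted p from limma was 0.0289, without filter.

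Tyro3 (chr2:119797733-119818104, plus strand), the third receptor of the family and best known in the nervous system, was low in both genotypes. Its level was 0.702, 1.45, 1.53 and 1.95 CPM in WT and 0.784, 1.80, 0.691 and 0.496 CPM in miR-21-/- replicates 1 to 4. The lowest library of each genotype held about 21 and 15 reads, and the ranges overlapped. With a log2 fold change of -0.33 (95% interval -0.81 to 0.16, adjusted p = 0.270 from limma), neither direction could be called.

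Within each library, the ratio of Axl to Mertk does not depend on the scaling between libraries. It was 1.77, 2.09, 1.75 and 3.18 in WT and 1.40, 1.04, 1.28 and 1.80 in miR-21-/- replicates 1 to 4. Only miR-21-/- replicate 4 reached the WT range. The log2 ratio differed by -0.65 (exact permutation test, two-sided, p = 0.0857, n = 4 each).

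**Figure D2:**
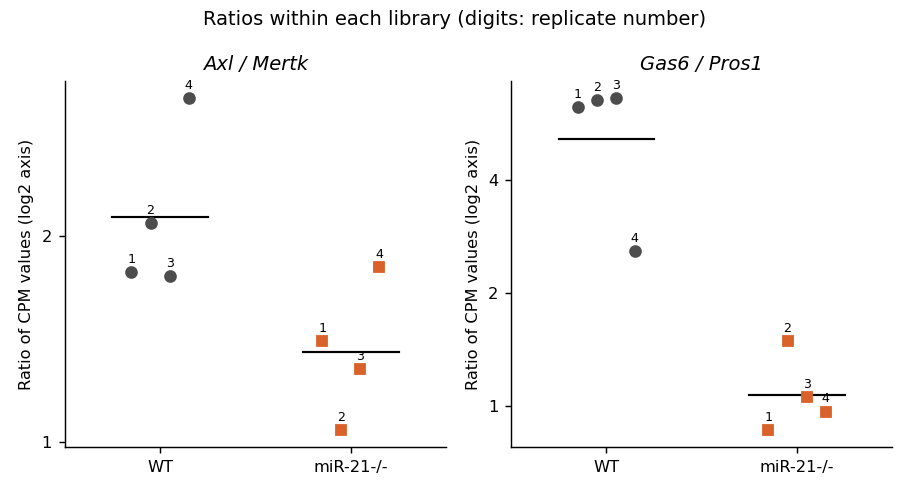
Ratio of Axl to Mertk (left) and of Gas6 to Pros1 (right) in each library, on log2 axes, with gray circles for WT, orange squares for miR-21-/- TAMs, digits for the replicate and bars for the geometric mean. The Axl to Mertk ratios overlap through miR-21-/- replicate 4 (1.80), whereas the Gas6 to Pros1 ratios lie between 2.59 and 6.61 in WT and between 0.863 and 1.49 in miR-21-/- TAMs.

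By the similarity of their profile over the 8 libraries (Pearson r of log2(CPM + 1), among 8640 genes with a mean of at least 10 CPM, given as a description), Frmd4b (r = 0.971), Abcf3 (0.963) and Eif2ak3 (0.948) were most like Mertk, and none of them differed between the genotypes at an adjusted p of 0.05 from limma. Arhgap39 (r = 0.984), Fgd2 (0.980) and Rad51d (0.979) were most like Axl, with log2 fold changes of -0.90, -0.45 and -0.28. The libraries share the difference between genotypes, which enters each of these coefficients.

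Axl and Tyro3 were the only members with a site for the miR-21 seed of at least 7 bases in their longest annotated 3′ UTR, and these sites are shown with 8 bases on each side and the site in capitals (Axl-201, UTR bases 742 to 748, and Tyro3-202, UTR bases 1016 to 1022, GENCODE M21).
Axl: ggagtttcTAAGCTAtgatgtgg
Tyro3: aacatttcTAAGCTAttaagttg
Both have the 7-base match TAAGCTA, which pairs with miRNA bases 2 to 7 and has an A opposite base 1. None of the 10 genes had the 8-base site ATAAGCTA. A site of 7 or 8 bases was found in 12.4% of the 11449 tested genes whose 3′ UTR is annotated, and the 8-base site in 2.24%. Axl was lower and Tyro3 not different in the miR-21-/- TAMs, and a match of letters does not show that the miRNA binds there.

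The ligands of these receptors moved apart. Gas6 (chr8:13465374-13494490, minus strand) encodes the vitamin K-dependent protein that links phosphatidylserine to all 3 receptors. It was measured at 163, 212, 181 and 65.3 CPM in WT replicates 1 to 4 and at 27.5, 50.7, 36.2 and 35.2 CPM in miR-21-/- replicates 1 to 4. Every miR-21-/- library lay below every WT library, although WT replicate 4 stood closer to the miR-21-/- libraries than to the other WT libraries. Gas6 fell from 155 ± 63.4 to 37.4 ± 9.66 CPM, 4.16-fold lower, with a log2 fold change of -1.93 (standard error 0.32, 95% interval -2.66 to -1.21, adjusted p = 0.00163 from limma).

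The direction of Gas6 held under every alternative tried, but its call did not. Without WT replicate 1, 2 or 3 or miR-21-/- replicate 1 or 3, log2 fold changes of -1.93 to -1.74 had adjusted p values of 0.00519 to 0.00671 from limma, and without WT replicate 4 it was -2.30 (adjusted p = 2.75e-05).

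Gas6 is also made by fibroblasts, which lack CD45 and which the sort for CD45+ CD11b+ MHC II+ F4/80+ cells should remove. The summed level of the 7 fibroblast markers was 97.3, 67.0, 88.3 and 143 CPM in WT and 11.6, 45.9, 15.9 and 12.6 CPM in miR-21-/- replicates 1 to 4. All 7 markers had a lower mean in miR-21-/- TAMs, and Col1a1, Col3a1, Pdgfra and Pdgfrb fell past the threshold. Both Gas6 and the markers were lower in miR-21-/- TAMs. Within genotypes they did not always move together. WT replicate 4 had the highest marker sum of all libraries and the lowest Gas6 of the WT libraries, while miR-21-/- replicate 2 was the highest of its genotype in both. The part of fibroblast RNA in the Gas6 values was not tested.

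**Figure D3:**
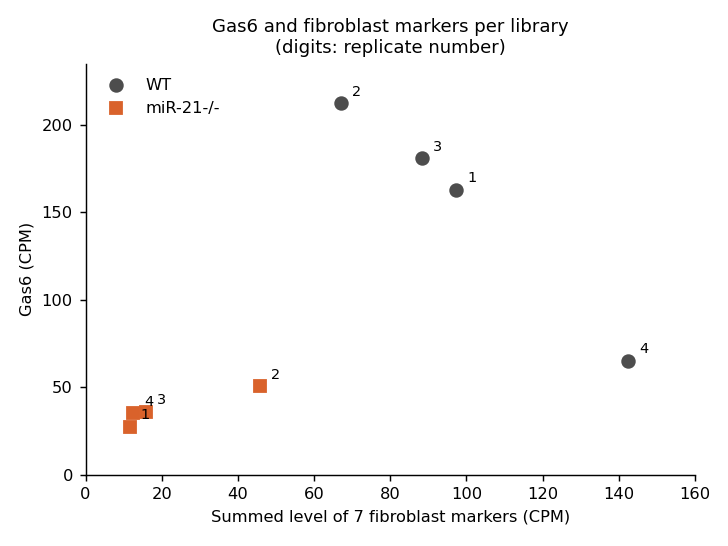
Gas6 (CPM, vertical axis) against the summed level of 7 fibroblast markers (CPM, horizontal axis) in each library, with gray circles for WT, orange squares for miR-21-/- TAMs and digits for the replicate. The 4 miR-21-/- libraries lie at lower left (27.5 to 50.7 CPM of Gas6), and WT replicate 4 combines the highest marker sum (143 CPM) with the lowest WT Gas6 (65.3 CPM).

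Pros1 (chr16:62854307-62929346, plus strand) encodes protein S, an anticoagulant and the ligand of MERTK and TYRO3. Its level was 26.1, 32.6, 27.4 and 25.3 CPM in WT and 31.9, 34.1, 34.2 and 36.3 CPM in miR-21-/- replicates 1 to 4. Only WT replicate 2 reached the miR-21-/- range. Pros1 was higher by a small step, 34.1 ± 1.80 against 27.8 ± 3.31 CPM, with a log2 fold change of 0.29 (95% interval 0.11 to 0.47, adjusted p = 0.0209 from limma), short of the threshold. Without filter, without WT replicate 1 or without miR-21-/- replicate 4 the adjusted p from limma lay above 0.05, at 0.0519 to 0.0570. Its size also depended on the scaling. The log2 fold change was 0.38 with quantile normalization (adjusted p = 0.00462 from limma). By the median of ratios it was 0.40 (adjusted p = 0.00321) and by TMM factors 0.40 (adjusted p = 0.00338), still under 1.5-fold.

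The balance of the ligands differed within each library. There were 6.25, 6.51, 6.61 and 2.59 CPM of Gas6 for each CPM of Pros1 in WT replicates 1 to 4 and 0.863, 1.49, 1.06 and 0.968 in miR-21-/- replicates 1 to 4. The ratios did not overlap, and WT replicate 4 stood apart from the other WT libraries. The log2 ratio differed by -2.26 (exact permutation test, two-sided, p = 0.0286, the smallest p that 4 against 4 allow).

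Among the other bridging and co-receptor genes, Tgm2 rose and Mfge8 was lower. Tgm2 (chr2:158116402-158146436, minus strand) encodes transglutaminase 2, a crosslinking enzyme that at the macrophage surface assists integrin β3 in binding MFGE8. It was measured at 420.4, 431, 459 and 507 CPM in WT and at 938, 927, 1016 and 1121 CPM in miR-21-/- replicates 1 to 4. The lowest miR-21-/- library exceeded the highest WT library. From 454 ± 38.8 to 1001 ± 89.2 CPM, Tgm2 rose 2.20-fold, with a log2 fold change of 1.14 (standard error 0.08, 95% interval 0.95 to 1.32, adjusted p = 1.73e-05 from limma), and it passed the threshold under all 18 alternatives. Exons of Tgm2 overlap those of Rprd1b on the other strand, which did not exceed 36.9 CPM in any library.

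Mfge8 (chr7:79133768-79149060, minus strand) encodes milk fat globule-EGF factor 8, which bridges phosphatidylserine to αv integrins. It was low, at 4.41, 5.19, 6.43 and 6.61 CPM in WT and 3.66, 3.75, 4.15 and 2.28 CPM in miR-21-/- replicates 1 to 4. The groups lay side by side without overlap. The means were 5.66 ± 1.04 and 3.46 ± 0.813 CPM, and the log2 fold change of -0.59 (95% interval -0.94 to -0.23, adjusted p = 0.0183 from limma) did not pass the threshold. The adjusted p was above 0.05, at 0.0519 to 0.0644, without filter, with quantile normalization and without WT replicate 3.

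Lrp1 (chr10:127538161-127621148, minus strand) encodes a large endocytic receptor that recognizes calreticulin on dying cells. It was measured at 2366, 2171, 2570.2 and 1549 CPM in WT and at 2628, 2737, 2382 and 2342 CPM in miR-21-/- replicates 1 to 4. The ranges overlapped, and WT replicate 4 was the lowest. The log2 fold change was 0.24 (95% interval -0.09 to 0.57, adjusted p = 0.226 from limma), and 0.09 without WT replicate 4 (adjusted p = 0.505). It was 0.01 with quantile normalization (adjusted p = 0.965 from limma) and 0.36 by the median of ratios (adjusted p = 0.0930).

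Of the engulfment genes, Elmo1 was lower and Dock2 was not. Elmo1 (chr13:20090596-20608353, plus strand) encodes the scaffold that joins receptor signals to DOCK proteins. Its level was 98.0, 107, 97.2 and 116 CPM in WT and 67.2, 67.6, 74.6 and 84.2 CPM in miR-21-/- replicates 1 to 4. All miR-21-/- libraries were below all WT libraries. The change from 104 ± 8.63 to 73.4 ± 7.94 CPM gave a log2 fold change of -0.50 (standard error 0.08, 95% interval -0.69 to -0.32, adjusted p = 0.00155 from limma), past the limit on p but under 1.5-fold. The adjusted p from limma missed 0.005 without filter (0.00868) and without WT replicate 2 (0.00607) or miR-21-/- replicate 2 (0.00593) or 3 (0.00502). It also did so by the median of ratios (0.00645) and TMM factors (0.00652), where the log2 fold change was -0.39. It stayed at or under 0.00868 in all alternatives.

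Dock2 (chr11:34226815-34783892, minus strand), the exchange factor that loads RAC in blood cells, was measured at 273, 295, 300.4 and 282 CPM in WT and at 292, 275, 283 and 293 CPM in miR-21-/- replicates 1 to 4. It had the smallest SD of the 10 genes relative to its mean in both genotypes (4.31% and 2.91%), and all miR-21-/- libraries lay within the WT range. The log2 fold change was -0.01 with a 95% interval of -0.12 to 0.11 (adjusted p = 0.913 from limma), and 0.10 after rescaling by the median of ratios or by TMM factors.

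**Figure D4:**
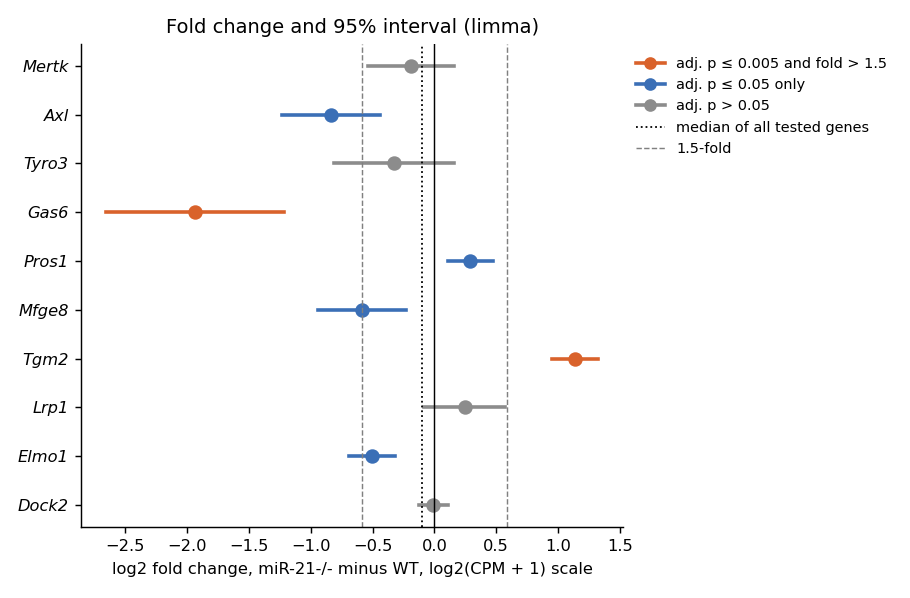
Log2 fold change (miR-21-/- minus WT, horizontal axis, log2(CPM + 1) scale) with its 95% interval for each of the 10 genes; orange marks genes past the threshold, blue those with an adjusted p at or under 0.05 only and gray the others. Gas6 (-1.93) and Tgm2 (1.14) lie beyond the dashed lines of 1.5-fold with the whole of their intervals, and the dotted line is the median of all genes tested (-0.10).

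The promoters of 9 members were listed by RefSeq (GRCm38.p6, 10 promoters of 300 bases, from 250 before to 50 after each start), all but that of Tgm2, and were searched on both strands for 5 motifs. GAS (TTCNNNGAA), a motif of promoters that respond to interferon, was the only one of these motifs with a match, and its matches are shown in capitals with 8 bases on each side. They were in 3 members, which are Pros1 (chr16:62854207-62854231, plus strand), Lrp1 (chr10:127621364-127621388, minus strand) and, in 1 of its promoters, Elmo1 (chr13:20472908-20472932 and chr13:20472959-20472983, plus strand).
Pros1: cgaagagcTTCCAGGAAatgtccca
Lrp1: cggaccgcTTCCCAGAActccaaag
Elmo1, first match: aaaagctcTTCCCAGAAaagccgat
Elmo1, second match: gcaggagtTTCCCTGAAatggaagc
Over all 32851 promoters, 8.30% held these letters. The genes with a match went in different directions, Pros1 higher, Elmo1 lower and Lrp1 not different. ISRE (a pair of GAAA, 2 bases apart, in 3.44% of promoters), DR4 (a pair of AGGTCA, 4 bases apart, in 0.0152%), TRE (TGANTCA, in 7.81%) and the E-box (CACGTG, in 7.15%) had no match in these windows of the members.

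Around these 10 genes, 116 other genes of apoptotic-cell uptake were followed in 8 lists, of which 102 were tested. Past the threshold, 8 rose and 7 fell, 14.7% of the genes tested in these lists, against 7.12% of all genes (2.89% higher and 4.23% lower), the background for the counts of each list. At an adjusted p of 0.05 from limma 21 were higher and 31 lower, 51.0% against 36.0% of all genes, while 50 did not pass. Their median log2 fold change was -0.04, beside -0.10 over all genes tested.

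Of 16 other apoptotic-cell receptors tested, 2 rose and 2 fell (median log2 fold change -0.11). Cd36, a scavenger receptor for oxidized lipids and dying cells, rose from 21.9 ± 12.05 to 117 ± 22.8 CPM (log2 fold change 2.52, adjusted p = 0.000540 from limma). Scarf1, a scavenger receptor that binds C1q on dying cells, rose from 28.6 ± 2.41 to 45.3 ± 5.34 CPM (0.64), a call lost in 2 of 18 alternatives. Itgb5, the β5 partner of the αv integrin that binds MFGE8, fell from 161 ± 16.1 to 91.7 ± 1.99 CPM (-0.80). Scarb1, the HDL receptor, which also binds phosphatidylserine, fell from 138 ± 21.4 to 76.8 ± 10.4 CPM (-0.83).

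Of 12 other bridging and opsonin genes, 2 rose and none fell (median 0.12). C3, the central complement protein, rose from 214 ± 29.1 to 519 ± 128 CPM (log2 fold change 1.25), and Thbs1, thrombospondin 1, a ligand of CD36, rose from 1230 ± 354 to 2631 ± 613 CPM (1.12, adjusted p = 0.00328 from limma). The call of Thbs1 was lost in 8 of 18 alternatives, which left its direction as it was. Of 20 other genes of the engulfment machinery, 2 fell and none rose (median -0.15). These were Dock5, a relative of Dock2, from 53.8 ± 3.03 to 26.7 ± 2.06 CPM (-0.99), and Vav2, an exchange factor for RAC, from 64.3 ± 10.1 to 33.7 ± 4.39 CPM (-0.91).

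Among 10 receptors for signals that dying cells release, 2 fell and 1 rose (median -0.05). Cx3cr1, the receptor for fractalkine, fell from 47.8 ± 21.4 to 2.69 ± 0.666 CPM (log2 fold change -3.64), and Gpr34, a receptor for lysophosphatidylserine, fell from 23.7 ± 5.72 to 8.53 ± 1.26 CPM (-1.35). Fpr2, a receptor for formyl peptides and annexin A1, rose from 84.1 ± 14.3 to 128 ± 8.93 CPM (0.61), a call that was lost in 8 of 18 alternatives. In the 17 tested genes of corpse degradation and LC3-associated phagocytosis 1 rose (median -0.03), Slc29a3, a lysosomal nucleoside transporter, from 186 ± 25.8 to 287 ± 13.3 CPM (0.64), a call that was lost in 3 of 18 alternatives. In the 11 lipid response genes 1 fell (median -0.22), the retinoid X receptor gene Rxrb, from 42.5 ± 1.91 to 26.7 ± 2.20 CPM (-0.65). Its call was lost in 4 of 18 alternatives, in which it came under 1.5-fold (-0.54 by the median of ratios). None of 8 do-not-eat-me genes passed the threshold, while 1 was higher and 2 lower at an adjusted p of 0.05 from limma (median -0.12).

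The last list holds the proteases that shed these receptors and the genes through which the receptors restrain inflammation, and 2 of its 8 tested genes rose (median 0.00), of which 1 is described here. Socs1, an inhibitor of cytokine signaling that these receptors are known to induce, rose from 5.18 ± 1.09 to 26.2 ± 5.36 CPM (log2 fold change 2.14, adjusted p = 1.66e-05 from limma). The part of the receptors in this rise was not tested. At an adjusted p of 0.05 from limma, 3 genes of the list were higher and 2 lower (62.5%, against 36.0% of all genes). Adam10 and Adam17, whose products cut AXL and MERTK from the cell surface, had log2 fold changes of -0.01 and 0.02.

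**Figure D5:**
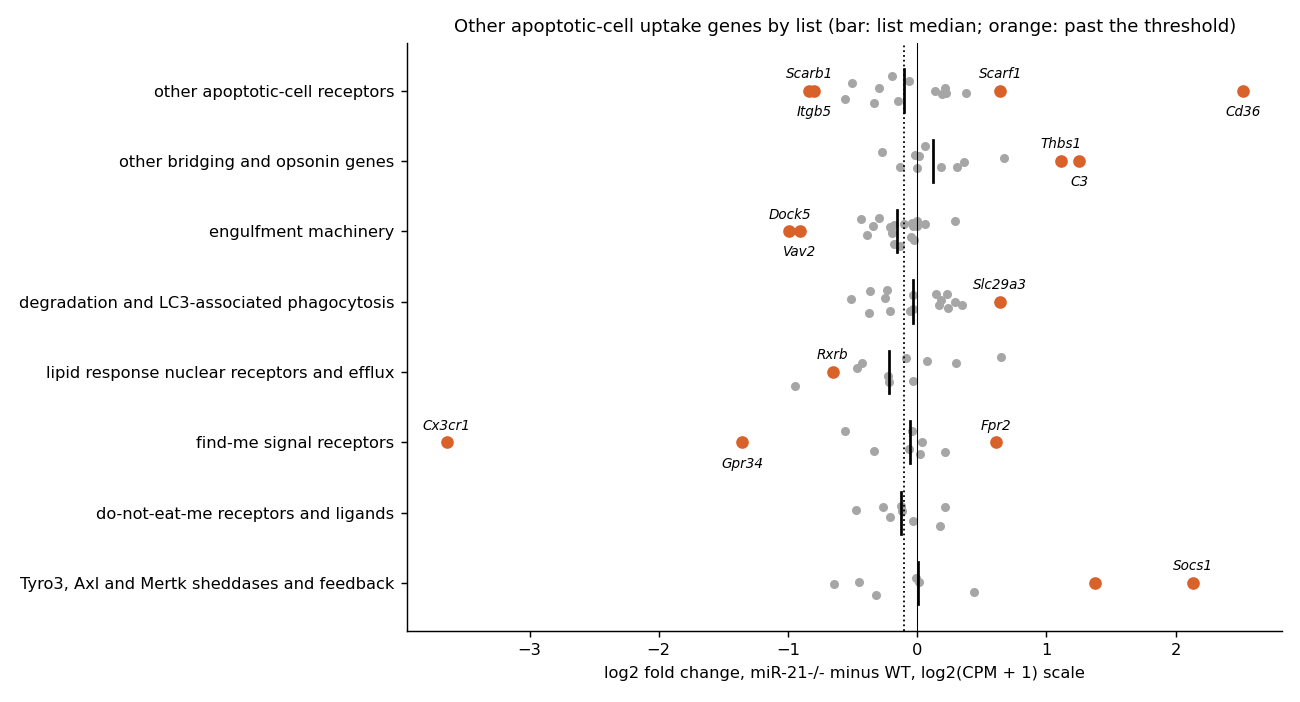
Log2 fold change (miR-21-/- minus WT, horizontal axis, log2(CPM + 1) scale) of the 102 tested genes of the 8 wider lists, 1 point per gene, with orange for the 15 past the threshold, names for those described and a black bar for the median of each list. Cx3cr1 (-3.64) and Cd36 (2.52) lie farthest from 0, and the list medians lie between -0.22 and 0.12, near the dotted median of all genes (-0.10).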

How the data were processed

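mRNA libraries (Kapa mRNA Hyper prep) were made from sorted TAMs of 4 WT and 4 miR-21-/- samples. The authors deposited CPM values, each raised by 0.0001, for 53247 genes. The submitters' processing notes name STAR, Partek 7.0 and mm10, without their roles; the counting rule and its use of strand are not given in the sources used here. All 37 mitochondrial genes were at 0.0001 in every library. Depth was taken from the smallest steps between values. Between 70.9% and 72.2% of values up to 20 reads were whole (tolerance 0.02), so reads were not recovered and no count test was run.

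The log2(CPM + 1) of 13850 genes was fitted on genotype alone in R 4.3.3 with limma 3.58.1 (trend option of eBayes), and p-values were Benjamini-Hochberg adjusted over all 13850. Genes whose mean was under 1 per 1e+06, relative to column totals, were left out. Ratios were tested by exact permutation (70 assignments). In simulated data with 200 of 13850 genes changed, 97% of log2 changes of 1 and 100% of 2 were recovered, with 2 false calls. Coordinates are those of the table; 97.1% of the genes found in GENCODE M21 have the same start there. Exon lengths and 3′ UTRs came from GENCODE M21, sequences of promoters and of the miRNA from RefSeq, and figures from matplotlib 3.10.9.

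All 10 members are named, as are the genes of the wider lists past the threshold, except 1 that is not reported here, Mir21a and the 3 genes most like Mertk and Axl. The members and lists were chosen with earlier results of these data known. Alternatives were other pseudocounts, filters, scalings, variance models and sample weights, a replicate block, and leaving out each library. Other data of the study were not analysed here.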

Additional observations from a re-analysis of the deposited data

Results flagged for a closer look

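In groups of 4 libraries, a value was singled out where its gap to the nearest other library, divided by the range of the group, exceeded Dixon's 95% critical value. This was so for 5 of the 74 groups of values examined, and chance gives about 1 in 20. The Gas6 to Pros1 ratio of WT replicate 4 was 2.59, against 6.25 to 6.61 in the other WT libraries. The summed fibroblast markers of miR-21-/- replicate 2 reached 45.9 CPM, against 11.6 to 15.9 CPM in the others, and this library also had the highest Gas6 of its genotype (50.7 CPM). The summed B cell markers of miR-21-/- replicate 1 were 11.3 CPM, against 3.84 to 4.92 CPM. In WT TAMs, the summed monocyte markers of replicate 1 were 1117 CPM, against 651 to 725 CPM, and the summed epithelial or carcinoma markers of replicate 2 were 24.8 CPM, against 18.8 to 19.8 CPM.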

How the results depend on the processing

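All 10 genes but Dock2 kept their direction under every alternative that tested them (Tyro3 was not tested with the filter at 5). The log2 fold change of Dock2 turned to 0.10 both by the median of ratios and by TMM factors, and lay between -0.033 and 0.013 when single libraries were left out (0.0041 without WT replicate 2, 0.013 without WT replicate 3, 0.0097 without miR-21-/- replicate 2). The number of the 10 genes past the threshold was 1 with no filter, where Gas6 had an adjusted p of 0.0123 from limma among 30634 genes, and between 1 and 3 when single libraries were left out, with 1 without WT replicate 2 or 3 or miR-21-/- replicate 1 or 3. At an adjusted p of 0.05 it was 4 to 6. Past the threshold, the wider lists held 10 to 16 genes under the alternatives, against the 15 given above. The Axl to Mertk difference ranged from -0.79 to -0.46 when single libraries were left out (exact permutation p 0.0286 to 0.171), with the lowest p without miR-21-/- replicate 4. The Gas6 to Pros1 difference ranged from -2.59 to -2.14, and its exact permutation p rose to 0.0571 without miR-21-/- replicate 1, 3 or 4. Paired by replicate number (replicate block) it was -2.26 with an exact p of 0.125, the smallest that 4 pairs allow. Same-numbered samples shared only a number: the correlations of their deviations were -0.14 to 0.22, and 1 of 4 WT samples correlated best with its own number. The replicate block gave 922 genes past the threshold against 986, and Axl passed it. Rescaling by the median of ratios moved the median of all genes from -0.10 to 0.00 and the share of higher among all calls from 40.6% to 59.8% (59.1% by TMM factors, 59.3% by quantile normalization, 55.5% with a pseudocount of 10 and 52.4% with no filter). The count of all genes past the threshold fell to 452 with a pseudocount of 10 and to 515 with no filter. With no filter, Cd36 and Scarb1 also lost their calls. The causes were not tested. With 4 libraries per genotype, small changes of variable genes such as Mertk and Lrp1 cannot be resolved.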

Other observations

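Genes of the wider lists short of the threshold were looked at after their values were seen. Among the lipid genes, Apoe, which carries cholesterol out of macrophages, was lower in miR-21-/- TAMs, at 1128 ± 303 CPM against 2187 ± 582 CPM in WT (SD over 4 samples), with a log2 fold change of -0.95 and an adjusted p of 0.00844 from limma, and the groups overlapped. The cholesterol exporter Abca1 was higher, at 635 ± 103 against 416 ± 121 CPM (0.65, adjusted p = 0.0396 from limma), without overlap. Abca7, a relative of Abca1, was lower at 52.9 ± 5.77 against 71.3 ± 4.30 CPM (-0.43, adjusted p = 0.00260 from limma).

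Of the genes of the phagocyte NADPH oxidase, Cybb, which encodes the catalytic subunit, was higher at 1084 ± 58.4 against 852 ± 83.4 CPM (log2 fold change 0.35, adjusted p = 0.00882 from limma), as was Ncf1 at 166 ± 14.2 against 135 ± 4.32 CPM (0.29, adjusted p = 0.00677 from limma). The complement C1q genes, opsonins of dying cells, had log2 fold changes of 0.00 (C1qa), 0.01 (C1qb) and -0.02 (C1qc) at mean levels of 1077 to 1349 CPM, with standard errors of 0.08 to 0.09.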
